A study of Mus musculus with 6 samples.

Results

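The genes that make leukotrienes and prostaglandins were followed in mouse bone marrow through 10 genes picked by symbol from a table of 14992 genes. They are the phospholipase gene Pla2g4a, the leukotriene genes Alox5, Alox5ap, Lta4h, Ltc4s and Mgst2, the lipoxygenase gene Alox15, and the prostaglandin genes Ptgs1, Ptgs2 and Hpgds. All 10 passed the filter on low counts. They were chosen with the inhibitor and vehicle values of these same libraries known, so their differences between the groups are described here without a p-value and support nothing further.

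A pair of lipid signalling branches starts from arachidonic acid that cytosolic phospholipase A2 frees from membranes. In the leukotriene branch, arachidonate lipoxygenase and its helper protein FLAP make leukotriene A4, which a hydrolase turns into leukotriene B4, an attractant of neutrophils, or which a synthase joins to glutathione to give leukotriene C4, the parent of the cysteinyl leukotrienes. In the prostaglandin branch, cyclooxygenases make prostaglandin H2, from which terminal synthases make prostaglandins and thromboxane. In blood-forming tissue, neutrophils, macrophages, eosinophils, mast cells and platelets are the best-known sources of these lipids.

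The inhibitor group held 3 libraries from recipients given a PI3Kalpha/beta inhibitor at 75 mg/kg, and the vehicle group held 3 libraries from recipients given vehicle, each for 21 days. Both groups carried the same graft, whole marrow of Dnmt3a knockout mice placed into irradiated C57/BL6 hosts, which the labels also call leukemic, so no library is free of the Dnmt3a deletion. The sources used here do not give the ages of the animals, how the deletion was made or how much host blood formation survived. Libraries are numbered 1, 3 and 5 for the inhibitor and 1, 2 and 3 for vehicle. Whether each was made from a separate mouse is unstated, and the spread between libraries may in part be technical.

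Total counts were 28198638 to 35299105 in inhibitor libraries and 33762431 to 59384880 in vehicle libraries. Dnmt3a itself stood at 15.4 to 20.2 CPM (read counts relative to library size, scaled for composition) in inhibitor libraries and 17.3 to 24.9 CPM in vehicle libraries. Gene-wide counts do not reveal whether some exons are missing. Marker genes of marrow cells were present in every library. The 14 neutrophil markers in the table summed to 103994 to 125813 CPM in inhibitor libraries and 40600 to 66200 CPM in vehicle libraries, led by S100a9, S100a8 and Ngp. The 15 macrophage markers summed to 589 to 902 CPM in inhibitor libraries, against 7311, 2151 and 2407 CPM in vehicles 1, 2 and 3. Vehicle 1 therefore stood apart from the other vehicles, and it was also highest in erythroid markers, at 3560 CPM against 836 and 979 CPM in vehicles 2 and 3. For many of the genes described here the value without vehicle 1 is therefore given too.

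Levels were compared between genes per length, as RPKM (CPM per 1000 bases of the gene). Alox5ap, which encodes FLAP, was the highest of the 10, at 888 ± 206 RPKM with the inhibitor and 648 ± 38.5 RPKM with vehicle (SD, n = 3 each). Its vehicle mean was above 99.3% of the tested genes. Lta4h, the hydrolase gene, came next at 322 ± 43.3 RPKM with the inhibitor and 224 ± 29.7 RPKM with vehicle. Among those of the 10 genes that convert leukotriene A4, Lta4h of the B4 branch stood above Mgst2 and Ltc4s of the C4 branch in both groups. The lowest was Ptgs2, the inducible cyclooxygenase gene, at 0.129 ± 0.0231 RPKM with the inhibitor and 0.935 ± 0.60 RPKM with vehicle. In the inhibitor group the order was Alox5ap, Lta4h, Mgst2, Alox5, Ptgs1, Pla2g4a, Ltc4s, Alox15, Hpgds and Ptgs2, and the only neighbours whose libraries overlapped were Ltc4s and Alox15. In the vehicle group it was Alox5ap, Lta4h, Mgst2, Alox5, Ptgs1, Ltc4s, Pla2g4a, Hpgds, Alox15 and Ptgs2. There the overlapping neighbours were Mgst2 and Alox5, Ptgs1 and Ltc4s, Ltc4s and Pla2g4a, and Hpgds and Alox15.

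**Figure D1:**
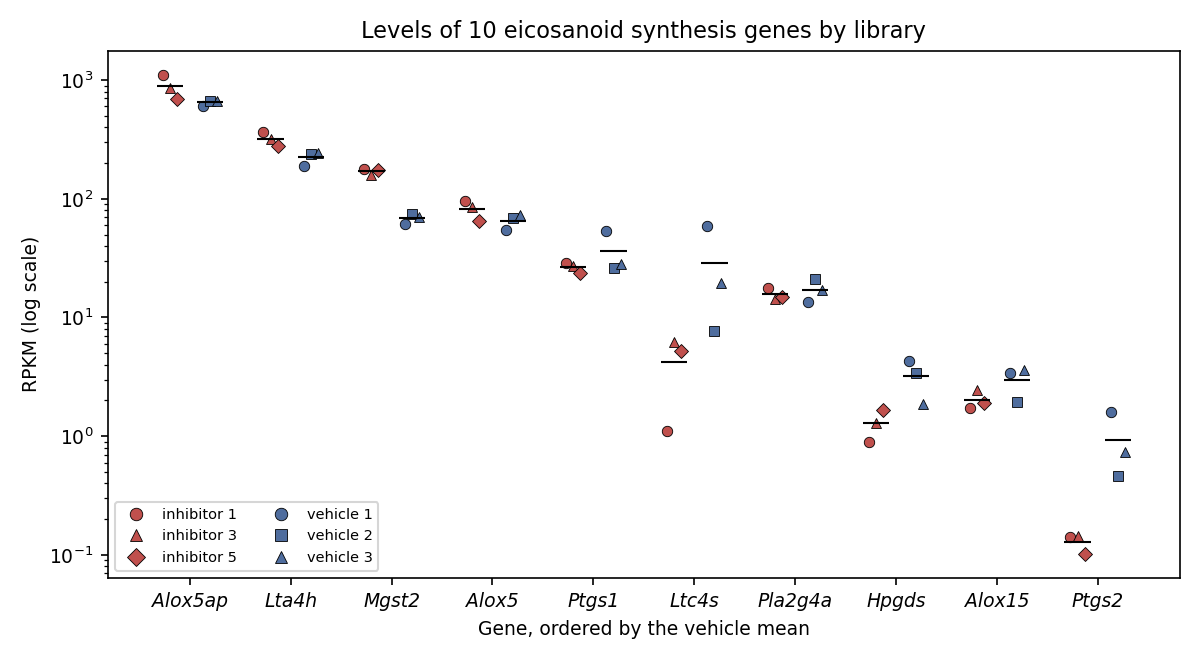
RPKM of the 10 genes on a log scale, 1 symbol per library, inhibitor in red left of vehicle in blue, with a bar at each group mean. Alox5ap and Lta4h are highest in both groups, and Ptgs2 is lowest in both, at means of 0.129 RPKM with the inhibitor and 0.935 RPKM with vehicle.

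With the inhibitor, Mgst2 was higher and Ptgs2 was lower than with vehicle past the threshold used over all genes (edgeR adjusted p under 0.05), and the other 8 genes did not pass. So 1 of 10 was higher and 1 lower, beside 0.633% and 1.19% of all 12806 tested genes (1.83% in either direction). The groups did not overlap in 6 of the 10, beside 30.7% of tested genes. Mgst2, Lta4h and Alox5ap lay higher in every inhibitor library, as did 14.4% of all tested genes, and Ltc4s, Ptgs2 and Hpgds lay lower, as did 16.2%. The median log2 fold change of the 10 genes (inhibitor over vehicle) was -0.288, beside 0.001 over all tested genes, and it was -0.159 without vehicle 1, beside 0.024. The genes were picked with these differences in view, so nothing is read from these counts. In bulk marrow, fewer cells of a type and less RNA per cell cannot be told apart in any of these values.

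**Figure D2:**
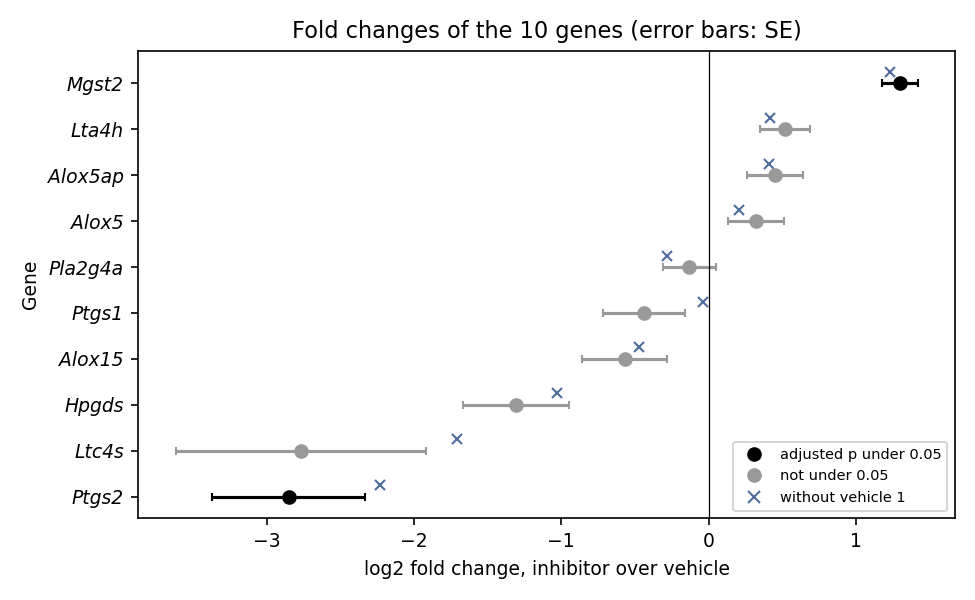
log2 fold changes, inhibitor over vehicle, of the 10 genes with their SE over 6 libraries. Black points passed the threshold over all genes, grey points did not, and crosses give the value without vehicle 1, which lies nearer to 0 for Ltc4s (-1.71), Ptgs2 (-2.23) and Ptgs1 (-0.04).

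For the first step of the pathway the groups overlapped. Pla2g4a (chromosome 1, 149829618 to 149961290, GRCm38), the cytosolic phospholipase A2 that releases arachidonic acid, stood at 53.9, 43.5 and 45.8 CPM in inhibitors 1, 3 and 5, against 41.0, 64.7 and 51.7 CPM in vehicles 1, 2 and 3. The inhibitor libraries lay within the range of the vehicles, with a log2 fold change of -0.13 ± 0.18 (SE; 3 libraries per group). Its sign turned to 0.04 without vehicle 2, and the value was -0.28 without vehicle 1.

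The products of Alox5 and Alox5ap together form leukotriene A4. Alox5 (chromosome 6, 116410077 to 116461178), the lipoxygenase of this branch, had 273, 239.9 and 184 CPM in inhibitors 1, 3 and 5, against 154, 194 and 208 CPM in vehicles 1, 2 and 3. Inhibitor 5 lay below vehicles 2 and 3, so the groups overlapped, with a log2 fold change of 0.32 ± 0.19 (SE), and 0.21 without vehicle 1. Alox5ap (chromosome 5, 149264767 to 149288153), whose product FLAP hands arachidonic acid to the lipoxygenase, had 1120, 872 and 706 CPM in inhibitors 1, 3 and 5, against 612, 683 and 676 CPM in vehicles 1, 2 and 3. Every inhibitor library was above every vehicle, although inhibitor 5 was close to vehicles 2 and 3. The log2 fold change of Alox5ap was 0.45 ± 0.19, without passing.

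Lta4h (chromosome 10, 93453411 to 93484875) encodes the hydrolase that makes leukotriene B4. It had 758, 657 and 579 CPM in inhibitors 1, 3 and 5, against 392, 490 and 505 CPM in vehicles 1, 2 and 3, again with no overlap and a log2 fold change of 0.52 ± 0.17 (SE). It did not pass in edgeR and passed in DESeq2 (0.53) and in limma voom with quality weights (0.41). Alox5, Alox5ap and Lta4h thus all had positive values and were 1.25, 1.37 and 1.44 times as high in the mean of the inhibitor libraries as in the mean of the vehicles.

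Among the 10 genes, the 2 whose products can make leukotriene C4 differed in opposite directions, and Mgst2 alone of them passed. Mgst2 (chromosome 3, 51660360 to 51682677), a microsomal glutathione transferase with leukotriene C4 synthase activity, had 104, 93.4 and 102 CPM in inhibitors 1, 3 and 5, against 36.5, 44.0 and 41.0 CPM in vehicles 1, 2 and 3. The 3 inhibitor libraries sat close together and all lay more than 40 CPM above every vehicle. Their mean was 2.47 times the vehicle mean, with an SD of 5.77 CPM in the inhibitor group and 3.81 CPM around 40.5 CPM in the vehicle group (n = 3 each), a log2 fold change of 1.30 ± 0.12 (SE), and 1.23 without vehicle 1. Ltc4s (chromosome 11, 50236461 to 50238616), the dedicated leukotriene C4 synthase of myeloid cells, had 0.651, 3.68 and 3.06 CPM in inhibitors 1, 3 and 5, against 34.4, 4.50 and 11.4 CPM in vehicles 1, 2 and 3. All inhibitor libraries were below all vehicles, but vehicle 2 was close to inhibitors 3 and 5, and vehicle 1 was far above the rest. The Ltc4s log2 fold change was -2.77 ± 0.85 (SE), and -1.71 without vehicle 1. It passed in DESeq2 but not in edgeR or in limma voom with quality weights.

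Set side by side within each library, per length, Mgst2 was 159.9, 25.3 and 33.4 times Ltc4s in inhibitors 1, 3 and 5, against 1.06, 9.76 and 3.58 times in vehicles 1, 2 and 3. In vehicle 1 the 2 genes were nearly level, and in every inhibitor library Mgst2 made up at least 96.2% of their summed RPKM. That sum was 178, 165 and 179 RPKM in inhibitors 1, 3 and 5, against 120.5, 82.4 and 89.1 RPKM in vehicles 1, 2 and 3. The summed RPKM of the pair was therefore higher in every inhibitor library than in any vehicle, while Ltc4s alone was lower.

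**Figure D3:**
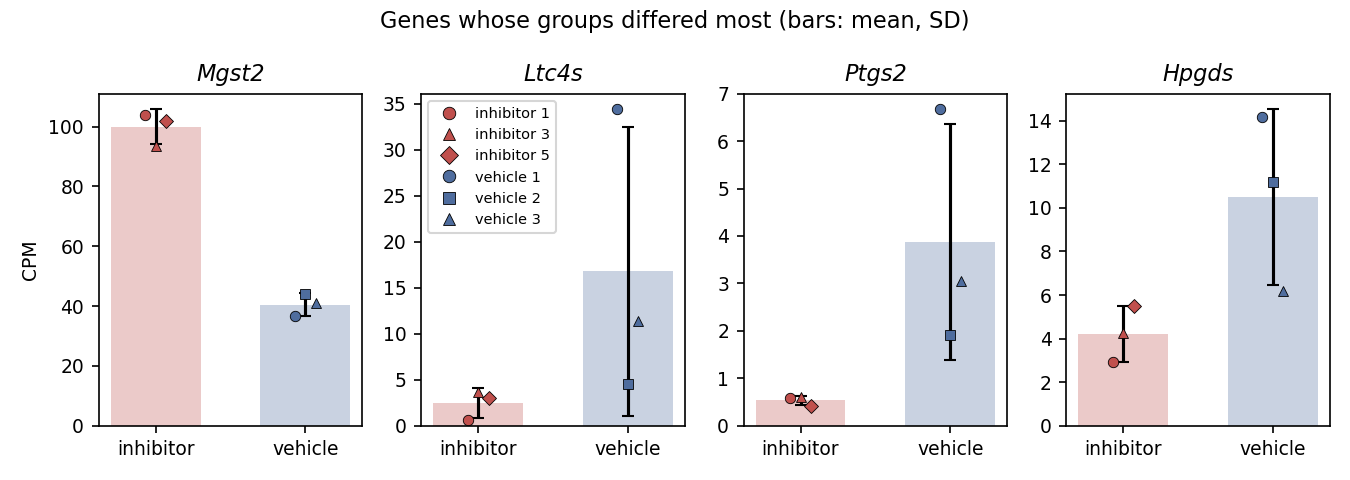
CPM of the 4 genes with the largest fold changes in either direction, on linear axes from 0, with inhibitor left of vehicle in each panel, bars at the mean and error bars of 1 SD (n = 3 each). Mgst2 lies between 93.4 and 104 CPM in the inhibitor group and between 36.5 and 44.0 CPM in the vehicle group, and vehicle 1 is the highest library for Ltc4s, Ptgs2 and Hpgds.

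Alox15 (chromosome 11, 70344152 to 70352031), a lipoxygenase of macrophages and eosinophils whose products include lipoxin precursors, had 4.16, 5.92 and 4.56 CPM in inhibitors 1, 3 and 5, against 8.27, 4.72 and 8.69 CPM in vehicles 1, 2 and 3. Vehicle 2 lay among the inhibitor libraries, and the log2 fold change was -0.57 ± 0.29 (SE), without passing. The 9 eosinophil markers summed to 273 to 306 CPM in inhibitor libraries and 83.1 to 134 CPM in vehicle libraries. Prg2, Epx and Siglecf were the highest, with Prg2 alone at means of 200.4 CPM with the inhibitor and 76.5 CPM with vehicle. Of the 9, 7 lay higher in every inhibitor library, beside 14.4% of all tested genes, and Ccr3 and Il5ra overlapped. The part of these markers in the Alox15 values was not tested.

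Of the cyclooxygenase genes, which carry the first step of the prostaglandin branch, Ptgs1 was the more abundant and Ptgs2 the one that differed. Ptgs1 (chromosome 2, 36230426 to 36252272), the constitutive form, had 81.9, 78.3 and 68.5 CPM in inhibitors 1, 3 and 5, against 154, 75.3 and 80.8 CPM in vehicles 1, 2 and 3. Apart from vehicle 1 the libraries of both groups lay together, and the log2 fold change of -0.44 ± 0.28 (SE) became -0.04 without vehicle 1. Ptgs2 (chromosome 1, 150100031 to 150108227), the form induced by inflammatory signals, had 18, 16 and 15 counts in inhibitors 1, 3 and 5, against 234, 69 and 192 counts in vehicles 1, 2 and 3. On the scaled level that was 0.586, 0.595 and 0.425 CPM in the inhibitor libraries, against 6.67, 1.91 and 3.05 CPM in the vehicles. Even the lowest vehicle was above every inhibitor library. The vehicle mean was 7.24 times the inhibitor mean, and the log2 fold change was -2.85 ± 0.52 (SE), or -2.23 without vehicle 1. Per length, Ptgs1 was 202, 190.3 and 233 times Ptgs2 in inhibitors 1, 3 and 5, against 33.5, 57.2 and 38.3 times in vehicles 1, 2 and 3.

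Hpgds (chromosome 6, 65117293 to 65144908), the blood-cell synthase of prostaglandin D2, had 2.93, 4.24 and 5.49 CPM in inhibitors 1, 3 and 5, against 14.2, 11.2 and 6.19 CPM in vehicles 1, 2 and 3. Its groups did not overlap, with inhibitor 5 and vehicle 3 nearly touching. The log2 fold change was -1.31 ± 0.36 (SE), and -1.03 without vehicle 1. It passed in DESeq2 and in limma voom with quality weights, not in edgeR. DESeq2 called 2 of the 10 higher and 3 lower, beside 4.91% and 7.24% of all genes, and limma voom with quality weights called 2 and 2, beside 10.7% and 11.6%. Mast cells are a known source of prostaglandin D2. The 8 mast cell and basophil markers in the table summed to 739.8 to 1065 CPM in inhibitor libraries and 686 to 825 CPM in vehicle libraries, with overlap. Hdc, Prss34 and Mcpt8 led the sum, with Hdc alone at means of 655 CPM with the inhibitor and 474 CPM with vehicle. Of the listed markers, Mcpt4, Tpsb2 and Tpsab1 were not in the table, and Cma1 had means of 0.421 and 0.464 CPM. The sum therefore says little about mast cells, and its part in the Hpgds values was not tested.

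The authors' deposited table gives an adjusted p under 0.05 to 3 of the 10 genes, Mgst2 as higher and Ptgs2 and Hpgds as lower. Of all genes that have an adjusted p there, 4.24% are higher and 6.57% lower. The authors' deposited log2 fold changes were 1.31 for Mgst2, -2.85 for Ptgs2, -1.30 for Hpgds and -2.75 for Ltc4s.

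Whether a gene passed depended on which libraries entered the fit. Mgst2 and Ptgs2 passed without vehicle 1 and without vehicle 2. Over all tested genes, 3.1% were called higher and 4.89% lower without vehicle 1. Without vehicle 2, 7 were called higher and 84 lower, of 13016. Without inhibitor 1, inhibitor 3, inhibitor 5 or vehicle 3, edgeR called 0 of all tested genes, the 10 included, with 2174, 1832, 2223 and 2398 genes at an unadjusted p under 0.05. Over all 6 such fits, the value of Mgst2 stayed between 1.23 and 1.37 and that of Ptgs2 between -3.18 and -2.23. Since their groups do not overlap, that keeps their sign by construction.

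The start regions of the 4 genes with the largest fold changes are shown because 1 of these genes was higher and the others lower in every inhibitor library. RefSeq windows (GRCm38.p6) were found for 8 of the 10 genes, and the 250 bases before the start are printed on the strand of the gene, with matches to any of 8 short motifs in capitals. Both strands were searched. The TATA box was read as TATAAA. The FOXO motif, bound by forkhead factors that act below PI3K, was read as TGTTTAC. The AP-1 motif was read as TGANTCA. The cyclic AMP response element was read as TGACGTCA. Its shorter form, which lies within the whole one, was read as TGACG. The C/EBP motif was read as TTNNGCAA. The PU.1 motif was read as GAGGAAGT. The E-box was read as CACGTG.
Mgst2 (chr3:51660929-51661178, plus strand): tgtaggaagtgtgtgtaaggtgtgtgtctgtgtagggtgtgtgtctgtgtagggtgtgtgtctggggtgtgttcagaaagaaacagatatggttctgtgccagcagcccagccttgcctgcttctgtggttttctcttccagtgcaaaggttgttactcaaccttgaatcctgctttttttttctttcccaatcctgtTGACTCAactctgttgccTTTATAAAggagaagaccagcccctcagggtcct
Ltc4s (chr11:50238533-50238782, minus strand): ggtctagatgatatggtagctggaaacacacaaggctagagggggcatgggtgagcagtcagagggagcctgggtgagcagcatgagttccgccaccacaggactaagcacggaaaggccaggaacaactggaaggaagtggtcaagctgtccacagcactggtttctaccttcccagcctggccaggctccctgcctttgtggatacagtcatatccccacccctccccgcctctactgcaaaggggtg
Ptgs2 (chr1:150099781-150100030, plus strand): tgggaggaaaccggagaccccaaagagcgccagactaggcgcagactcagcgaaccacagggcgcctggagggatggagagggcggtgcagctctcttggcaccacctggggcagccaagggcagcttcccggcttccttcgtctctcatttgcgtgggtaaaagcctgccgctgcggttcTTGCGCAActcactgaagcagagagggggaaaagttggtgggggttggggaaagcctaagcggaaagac
Hpgds (chr6:65144731-65144980, minus strand): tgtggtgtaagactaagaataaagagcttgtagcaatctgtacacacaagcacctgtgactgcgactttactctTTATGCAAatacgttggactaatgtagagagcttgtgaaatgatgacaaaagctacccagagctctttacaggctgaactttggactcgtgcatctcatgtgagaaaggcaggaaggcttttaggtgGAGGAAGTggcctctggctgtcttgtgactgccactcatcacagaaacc

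The Mgst2 window held a TATA box match on each strand, overlapping each other between bases -34 and -27 from the start, and an AP-1 match from -52 to -46. Among 32817 RefSeq windows of the same length, 12.4% held the TATA box letters and 6.75% the AP-1 letters. The Ptgs2 window had a C/EBP match from -69 to -62, and the Hpgds window had a C/EBP match from -176 to -169 and a PU.1 match from -49 to -42. Those letters were in 9.57% of windows for C/EBP and 2.44% for PU.1. The Ltc4s window held none of the 8 motifs. The FOXO letters, present in 3.16% of all windows, were in none of the 4. The whole cyclic AMP element, its shorter form and the E-box, absent from the 4 windows too, were in 1.55%, 17.7% and 6.02% of all windows. Bases after the RefSeq start were not searched, so motifs there would be missed. These matches describe letters and no binding.

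The neutrophil and macrophage marker sums differed between the groups too. Per 1000 CPM of neutrophil markers, Mgst2 had 0.828, 0.808 and 0.985 CPM in inhibitors 1, 3 and 5, against 0.898, 0.665 and 0.684 CPM in vehicles 1, 2 and 3. On this scale the 2 groups overlapped, which they did not in CPM. Alox5ap had 6.79 to 8.92 CPM per 1000 CPM of neutrophil markers in inhibitor libraries and 10.3 to 15.1 in vehicle libraries. Lta4h had 5.57 to 6.02 and 7.40 to 9.65, so both genes lay lower with the inhibitor on this scale in every library. S100a8 and S100a9 had means of 27600 and 35500 CPM with the inhibitor, where the whole neutrophil sum had a mean of 115000 CPM. With vehicle they had 11200 and 14700 CPM of 55600 CPM. Mmp8, Mmp9, Cxcr2 and Csf3r of the same list overlapped between the groups. Values on this scale thus rest largely on a few genes. Per 1000 CPM of macrophage markers, Ltc4s had 1.10, 4.09 and 3.67 CPM in inhibitors 1, 3 and 5, against 4.71, 2.09 and 4.75 CPM in vehicles 1, 2 and 3. Ptgs2 had 0.994, 0.660 and 0.509 CPM on that scale in inhibitors 1, 3 and 5, against 0.912, 0.886 and 1.27 CPM in vehicles 1, 2 and 3. Both of these overlapped between the groups as well. Hpgds had 4.70 to 6.58 CPM per 1000 CPM of macrophage markers in inhibitor libraries and 1.94 to 5.20 in vehicle libraries. These scales were chosen after the values were seen, and the part of the cell mixture in the results was not tested.

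Within the 2 lists, all 15 macrophage markers lay lower in every inhibitor library and 7 of them passed, beside 16.2% and 1.19% of all tested genes. Of the 14 neutrophil markers, 10 lay higher in every inhibitor library and 2 passed, beside 14.4% and 0.633% of all tested genes. No marker of either list was at 0 in a whole group.

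**Figure D4:**
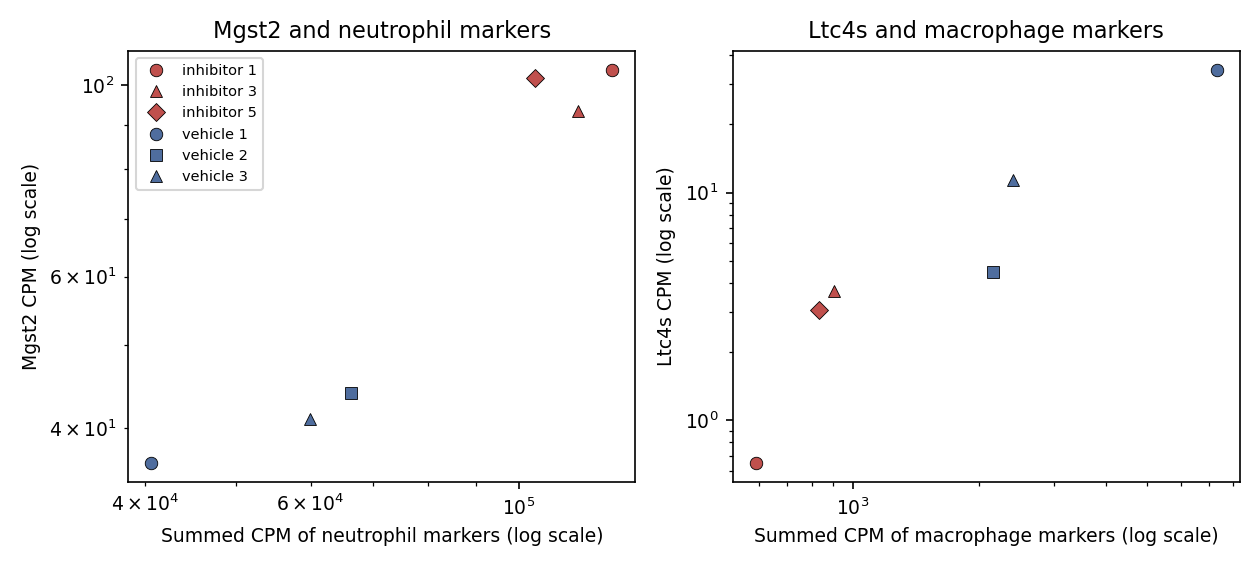
Mgst2 CPM against the summed CPM of 14 neutrophil markers, and Ltc4s CPM against that of 15 macrophage markers, on log axes with 1 symbol per library. Inhibitor libraries are at the upper right for Mgst2 and at the lower left for Ltc4s, and vehicle 1 is highest in macrophage markers and in Ltc4s.

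Beyond the 10 genes, 63 other names of the pathway were listed by role, of which 52 were in the table and 46 passed the filter. This list too was drawn up with earlier results of these data known, so its p-values and counts are descriptive only. In the edgeR test over all genes 1 of the 46 passed, Cysltr1, which fell, beside 1.19% of all tested genes called lower and 1.83% called in either direction, so the count is near that share. No other was lower or higher at an adjusted p under 0.05. Unadjusted p-values under 0.05 were found for 5 genes that were higher and 9 that were lower, and for 9.68% and 11.9% of all tested genes. The median log2 fold change of the 46 was 0.02, beside 0.001 over all tested genes. DESeq2 called 4 higher and 8 lower of the 46, beside 4.91% and 7.24% of all genes. Limma voom with quality weights called 8 higher and 7 lower, beside 10.7% and 11.6%. Without vehicle 1, edgeR called 2 higher and 4 lower, where 3.1% and 4.89% of all genes were called.

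Of the 5 leukotriene and lipoxin receptor genes tested, 1 passed in edgeR, beside 1.83% of all tested genes. DESeq2 called 2 higher and 1 lower, beside 4.91% and 7.24% of all genes. Cysltr1, a receptor for cysteinyl leukotrienes, had 8.07, 6.03 and 6.85 CPM in inhibitors 1, 3 and 5, against 14.5, 21.1 and 18.9 CPM in vehicles 1, 2 and 3. No inhibitor library reached the lowest vehicle, and Cysltr1 fell by 1.38 ± 0.20 on the log2 scale (SE, n = 3 per group; edgeR adjusted p = 0.0344). Over the alternatives its adjusted p ran from 5.74e-07 to 0.252, and it was 0.00412 without vehicle 1, with a value of -1.52. It did not pass without vehicle 2 (0.0622), vehicle 3 (0.101), inhibitor 1 (0.125), inhibitor 3 (0.169) or inhibitor 5 (0.149). Gm5127, an annotated gene on the other strand of Cysltr1, had 2 to 7 counts in inhibitor libraries and 3 to 6 in vehicle libraries.

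Ltb4r1, the main leukotriene B4 receptor of neutrophils, had 252, 236 and 183 CPM in inhibitors 1, 3 and 5, against 100.1, 139 and 152 CPM in vehicles 1, 2 and 3. All inhibitor libraries were above all vehicles, and the edgeR fold change was 0.78 ± 0.20 on the log2 scale (SE; adjusted p = 0.0849), without passing. Fpr2, a formyl peptide receptor that also binds lipoxin A4, had a mean of 432 ± 76.3 CPM with the inhibitor and 214 ± 87.1 CPM with vehicle (SD, n = 3 each; edgeR adjusted p = 0.132). Ltb4r1 and Fpr2 did pass in DESeq2 (adjusted p = 0.011 and 0.0292) and in limma voom with quality weights (adjusted p = 0.0069 and 0.0111). The difference between the receptors' fold changes was not tested.

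None of the 5 terminal synthase genes tested passed in edgeR. Its unadjusted p was under 0.05 for 2 lower genes, beside 11.9% of all tested genes. DESeq2 called both as lower, beside 7.24% of all genes. Tbxas1, thromboxane synthase, had 13.3, 19.4 and 20.5 CPM in inhibitors 1, 3 and 5, against 140.2, 46.5 and 40.9 CPM in vehicles 1, 2 and 3, at -2.09 ± 0.49 on the log2 scale (adjusted p = 0.0713 in edgeR; SE). It passed without vehicle 1, at -1.30 (adjusted p = 0.0105). Tbxas1 overlaps Hipk2 on the other strand, and the library kit does not mark strand, so reads in the shared stretch cannot be assigned. Hipk2 lay lower in every inhibitor library too, at means of 38.2 CPM with the inhibitor and 58.9 CPM with vehicle. Its part in the Tbxas1 values was not tested. Ptgis, prostacyclin synthase, had 0.52, 1.04 and 0.51 CPM in inhibitors 1, 3 and 5, against 6.04, 1.24 and 1.93 CPM in vehicles 1, 2 and 3. Vehicle 1 was far above the other vehicles, and the log2 fold change of -2.15 ± 0.66 (SE) became -1.23 without it. Ptges, a prostaglandin E synthase, had means of 5.17 ± 0.79 CPM with the inhibitor and 4.33 ± 0.782 CPM with vehicle (SD, n = 3 each). Neither Ptgis nor Ptges passed in edgeR, and Ptges overlapped between the groups.

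Dpep2, a dipeptidase that converts leukotriene D4 to E4, had 7.61, 4.87 and 5.44 CPM in inhibitors 1, 3 and 5, against 29.6, 9.23 and 14.6 CPM in vehicles 1, 2 and 3 (edgeR adjusted p = 0.0943). Its log2 fold change of -1.57 ± 0.43 (SE) became -1.0 without vehicle 1, where it did not pass either (adjusted p = 0.0574). Dus2 overlaps Dpep2 on the other strand. Dus2 lay lower in every inhibitor library as well, at means of 7.86 CPM with the inhibitor and 11.3 CPM with vehicle. Its part in the Dpep2 values was not tested. Mgst1, a relative of Mgst2, had means of 384 ± 36.7 CPM with the inhibitor and 219.6 ± 60.4 CPM with vehicle (SD, n = 3 each), at 0.81 ± 0.22 on the log2 scale (adjusted p = 0.0929 in edgeR; SE). Mgst1 passed in edgeR without vehicle 1, at 0.61 (adjusted p = 0.0495). Mgst3, of the same role list, overlapped between the groups, at means of 47.9 CPM with the inhibitor and 52.1 CPM with vehicle. With all libraries, Dpep2 and Mgst1 passed in DESeq2 (adjusted p = 0.00415 and 0.0134). They also passed in limma voom with quality weights (adjusted p = 0.0098 and 0.00844). Ggt5, a transpeptidase that makes leukotriene D4, had 44.2, 34.6 and 22.3 CPM in inhibitors 1, 3 and 5, against 21.2, 25.3 and 24.9 CPM in vehicles 1, 2 and 3, with overlap.

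Of the breakdown genes, Ptgr1, a reductase that inactivates leukotriene B4 and prostaglandins, had 106, 82.7 and 113 CPM in inhibitors 1, 3 and 5, against 38.6, 65.3 and 56.7 CPM in vehicles 1, 2 and 3 (edgeR adjusted p = 0.0746). Ephx1, an epoxide hydrolase, had 2.34, 8.63 and 6.74 CPM in the inhibitor libraries, against 89.3, 14.8 and 26.3 CPM in vehicles 1, 2 and 3, at -2.88 ± 0.75 on the log2 scale (adjusted p = 0.0888 in edgeR; SE). Hpgd, the dehydrogenase that starts prostaglandin breakdown, had a value of -0.68 ± 0.24. Vehicle 1 was the highest library for Ephx1 and Hpgd and the lowest for Ptgr1. Without it the values were -1.81, -0.41 and 0.72, and only that of Ptgr1 passed in edgeR among these 3 (adjusted p = 0.0343). With all libraries, Ptgr1 and Ephx1 passed in DESeq2 (adjusted p = 0.00563 and 0.0148). They also passed in limma voom with quality weights (adjusted p = 0.0219 and 0.0235), and Hpgd passed in neither.

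Slco2a1, the prostaglandin uptake transporter, was at -2.33 ± 0.64 on the log2 scale (adjusted p = 0.0995 in edgeR; SE), and -1.27 without vehicle 1 (adjusted p = 0.0408). It passed with all libraries in DESeq2 (adjusted p = 0.00504) and in limma voom with quality weights (adjusted p = 0.018). The exporters Abcc1, of leukotriene C4, and Abcc4, of prostaglandins, had values of -0.19 ± 0.13 and 0.03 ± 0.13. Without vehicle 1 both were at -0.08.

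Among prostanoid receptors 0 of 8 tested genes passed in edgeR, beside 1.83% of all tested genes. An unadjusted p under 0.05 was found for 1 that was higher and 0 that were lower, beside 9.68% and 11.9%. DESeq2 called 0 of them, beside 4.91% of all genes as higher and 7.24% as lower. Limma voom with quality weights called 2 higher and 0 lower, beside 10.7% and 11.6%. Ptgir, the prostacyclin receptor, had 49.2, 44.0 and 37.0 CPM in inhibitors 1, 3 and 5, against 14.3, 25.4 and 32.0 CPM in vehicles 1, 2 and 3 (edgeR adjusted p = 0.142). The thromboxane receptor gene Tbxa2r had a log2 fold change of 0.91 ± 0.39, and Ptger3, a prostaglandin E2 receptor gene, one of -0.87 ± 0.42. Vehicle 1 had 9.75 CPM of Ptger3, against 4.28 and 4.06 CPM in vehicles 2 and 3. Without vehicle 1 the values were 0.59 for Tbxa2r and -0.34 for Ptger3.

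Other phospholipases and lipoxygenases held no gene called by edgeR among 6 and 4 tested. In each, 1 lower gene had an unadjusted p under 0.05 in edgeR, beside 11.9% of all tested genes. DESeq2 called 1 lower gene in each, beside 7.24% of all genes. Pla2g15, the lysosomal phospholipase, had 32.0, 29.9 and 27.5 CPM in inhibitors 1, 3 and 5, against 38.9, 48.9 and 50.8 CPM in vehicles 1, 2 and 3, at -0.63 ± 0.14 on the log2 scale (adjusted p = 0.0685 in edgeR; SE), and -0.74 without vehicle 1, where it passed (adjusted p = 0.0119). Pla2g4c and Pla2g7 had values of -0.91 ± 0.59 and 0.10 ± 0.26, and of 0.07 and 0.05 without vehicle 1. Alox12, the lipoxygenase of platelets, had 1.72, 8.56 and 18.3 CPM in inhibitors 1, 3 and 5, against 13.5, 3.84 and 2.69 CPM in vehicles 1, 2 and 3. The 11 megakaryocyte and platelet markers summed to 93.0, 219.7 and 375 CPM in the same inhibitor libraries and to 301, 110 and 101 CPM in the vehicles, in the same order within each group, and their part in the Alox12 values was not tested. Aloxe3, the lower lipoxygenase gene counted above, stayed under 1 CPM in every library. It had 0, 4 and 2 counts in inhibitors 1, 3 and 5, against 34, 15 and 29 counts in vehicles 1, 2 and 3. It passed the filter on low counts only through the vehicles, so its log2 fold change of -3.15 ± 0.82 supports nothing further. Alox8 had a value of -0.54 ± 0.61, and -0.92 without vehicle 1.

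**Figure D5:**
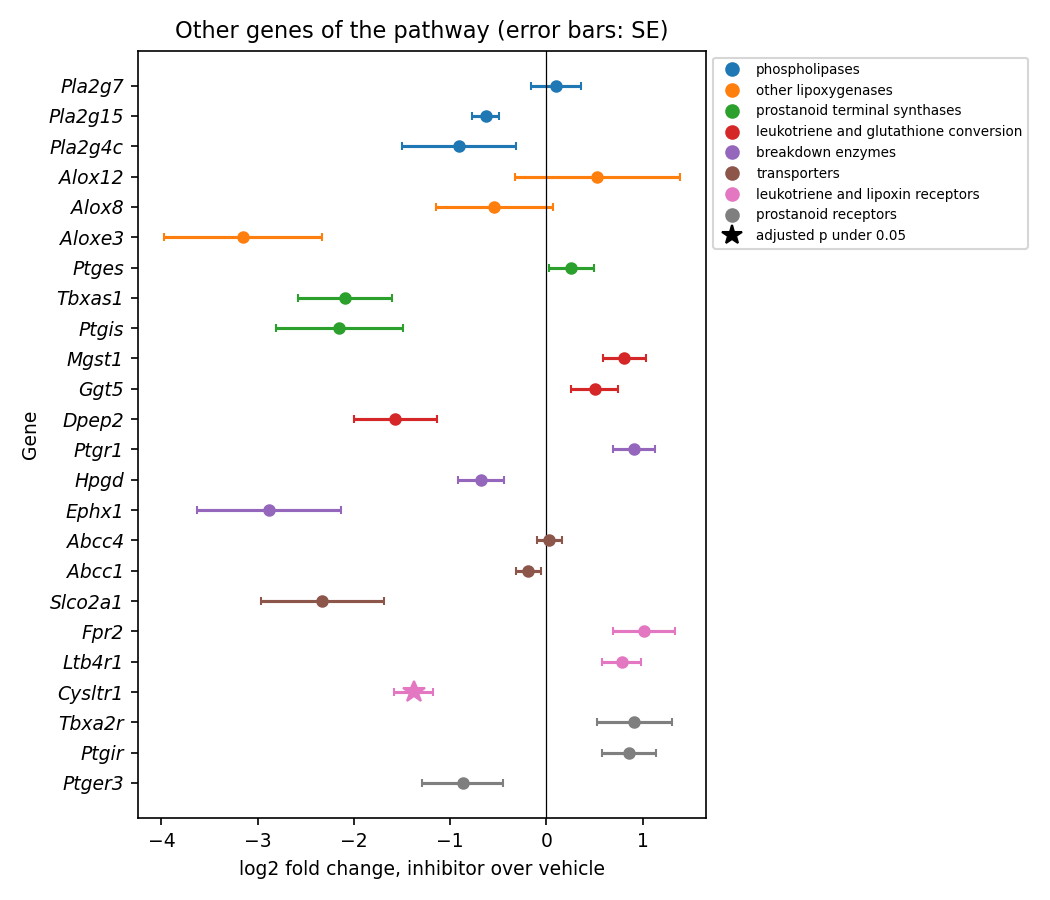
log2 fold changes, inhibitor over vehicle, with SE over 6 libraries, of 24 other pathway genes coloured by role. The star marks Cysltr1, at -1.38, the only one of the 46 tested with an edgeR adjusted p under 0.05.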

How the data were processed

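RNA of 6 marrow samples was measured. Libraries were made with SMART-Seq v4 and Nextera XT, per the labels' protocols, a chemistry that does not mark strand. STAR, featureCounts and mm10 are named, without versions, in the submitters' processing notes. Raw read counts per gene were deposited by the authors for 14992 genes, with gene lengths. The deposited table also has the authors' fold change (a ratio), its log2 value and p-values. The sources used here do not name that test.

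Libraries were grouped by the labelled treatment. The test of counts was the quasi-likelihood F test of edgeR 4.0.16 (R 4.3.3) on group (12806 genes kept by filterByExpr and 2186 left out, TMM scaling, Benjamini-Hochberg adjustment over all tested genes, threshold 0.05). SE is the size of the log2 fold change divided by the square root of F. The steps were tested on simulated counts. Alternatives were DESeq2 1.42.0 size factors and Wald test, upper-quartile scaling, limma 3.58.1 voom with quality weights, 2 other filters, a replicate block, each library left out, and levels without TMM. Libraries of a group differed beyond sampling noise (chi-square per degree of freedom of at least 29.6).

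The members and lists were chosen with earlier results of these data known. Named are all 10 members and, of the other pathway list, every called gene and up to 3 genes per role with the smallest p. Mgst3 and the listed genes left out by the filter are named besides. Gene positions are from GENCODE M21 (GRCm38, the same assembly as mm10). Promoter windows are from RefSeq (GRCm38.p6), which may start at another transcript than GENCODE. Lists of B lymphoid, T and NK cell, dendritic cell, monocyte and stroma markers were read too. In inhibitor libraries and vehicle libraries they summed to 103 to 318 and 38.4 to 85.4 CPM for B lymphoid, 155 to 160.5 and 141 to 214 CPM for T and NK cell, 72.9 to 83.5 and 63.6 to 71.2 CPM for dendritic cell, 2247 to 3035 and 3147 to 4085 CPM for monocyte, and 47.3 to 108 and 103 to 412 CPM for stroma and endothelium markers.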

Additional observations from a re-analysis of the deposited data

How the results depend on the processing

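With 3 libraries a group, the count of called genes depended on the tool and on single libraries. Over all genes edgeR called 81 higher and 153 lower, DESeq2 628 and 926, limma voom with quality weights 1374 and 1483, and the fit with the replicate block 0 and 7 (537 and 901 at an unadjusted p under 0.05). In the block fit vehicle 2 and inhibitor 5 have no same-numbered partner. Its group differences therefore rest on the libraries numbered 1 and 3. With 1 library left out, edgeR called 0 to 401 higher and 0 to 633 lower. Of the 10 members, 1 higher and 1 lower became 2 and 3 with DESeq2, 2 and 2 with limma voom, 0 and 0 with the replicate block, 0 to 1 each with a library left out, and 0 lower with the filter of 5 CPM in 3 libraries, which removes Ptgs2 and Ltc4s. Of the other pathway genes, 0 higher and 1 lower became 4 and 8 with DESeq2, 8 and 7 with limma voom, 0 lower with the replicate block, and 0 to 2 higher and 0 to 4 lower with a library left out.

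Of 128 member values under alternatives 2 reversed, both of Pla2g4a, at 0.07 with the replicate block and 0.04 without vehicle 2 (-0.28 to 0.04 with a library left out). Of 305 values of the other genes named by role and p, 8 reversed. These were Abcc4 (-0.05 with limma voom, -0.08 without vehicle 1), Alox12 (-0.61 with the replicate block, -0.36 without inhibitor 5), Alox8 (0.26 without vehicle 3), Pla2g4c (0.14 with limma voom, 0.07 without vehicle 1) and Pla2g7 (-0.18 without inhibitor 1). With a library left out these 5 ranged from -0.08 to 0.12, -0.36 to 1.56, -0.92 to 0.26, -1.23 to 0.07 and -0.18 to 0.34, in the order just given. The cause was not tested. Levels without TMM moved past 1 SD in 1 of 42 cases, the T and NK cell markers of the inhibitor group. The shared replicate numbers, 1 and 3, gave correlations of -0.44 and -0.05 between same-numbered libraries. What the numbers stand for is unstated, and 2 such correlations cannot show whether same-numbered libraries share a batch. Depth limits Ptgs2, with 15 to 18 counts per inhibitor library.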

Other observations

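Among the listed pathway genes in the table, 6 lay under the filter on low counts and were not tested. Dpep3, a dipeptidase related to Dpep2, had 8, 1 and 0 counts in inhibitors 1, 3 and 5, against 42, 9 and 26 counts in vehicles 1, 2 and 3. Pla2g5, a secreted phospholipase A2, had 0, 2 and 0 counts in the inhibitor libraries, against 16, 2 and 4 counts in the vehicles. Ptgds, the other prostaglandin D2 synthase beside Hpgds, had 2, 1 and 4 counts in the inhibitor libraries, against 6, 2 and 6 counts in the vehicles. Ptgdr2, a prostaglandin D2 receptor, had 1, 1 and 6 counts in the inhibitor libraries, against 3, 6 and 4 counts in the vehicles. Pla2g4f and Akr1c18 were as low, with at most 17 counts in any library.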
